A study of Mus musculus with 14 samples.

Results

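The smooth and cardiac muscle contractile genes described here are Acta2, Actc1, Actg2, Tagln, Cnn1, Mylk, Myl4, Myl6, Tpm1 and Tpm2, 10 of the 18193 genes that have a probe set of their own on the array. They were chosen by gene symbol, and all 21 probe sets whose platform annotation gives one of these symbols alone were followed. Another 2 probe sets carry Myl6 together with other symbols and were left out. The set was put together with the array values of this series in view, among them the difference between the wild types of its crosses, so that difference is described without a test.

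The 14 Affymetrix arrays carried RNA of peripheral blood from mouse embryos of day E12.5, and values are RMA expression levels on a log2 scale, on which 1 unit is a doubling. The first cross mated chimeras carrying Cbfb-MYH11 to C57/Bl6 females and gave Cbfb+/MYH11 embryos (4 arrays) and their Cbfb+/+ littermates, which the titles call WT (4 arrays). Matings of Cbfb+/- mice gave Cbfb-/- embryos (3 arrays) and their littermates, which the titles call Cbfb+/+ (3 arrays). Each sample was blood pooled from 8 to 10 embryos of one genotype, no group received an agent, and the fusion allele came through chimeras. Arrays of a group are titled technical replicates and nothing names separate pools, so a p-value here gauges array-to-array spread, which may be technical only.

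Smooth muscle contracts when calcium activates myosin light chain kinase, which Mylk encodes and which phosphorylates the regulatory light chain so that myosin can pull on actin filaments. The actin genes of this set mark vascular (Acta2), cardiac (Actc1) and enteric (Actg2) muscle, Tagln and Cnn1 encode actin-binding proteins of smooth muscle, Myl4 and Myl6 encode essential myosin light chains, and Tpm1 and Tpm2 encode tropomyosins that lie along the filament. Many of these genes are switched on through the CArG box, a promoter element bound by the transcription factor SRF with its partners of the myocardin family. Cbfb is the partner subunit of the Runx transcription factors, and the fusion joins it to the smooth muscle myosin heavy chain gene MYH11. In the mouse embryo Actc1 and Acta2 are active in the heart, in developing skeletal muscle and in vessel walls, and blood cells use mainly the non-muscle actins and light chains.

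The stretch of 250 bases before the transcription start is shown for 4 members, because they differ in the motifs it holds. Sequences come from the RefSeq promoter table for GRCm38.p6, which had entries for 8 of the 10 genes (Actg2 and Tagln had none there), and are written 5′ to 3′ on the strand of the gene. Capitals mark CArG boxes with at most 1 other base among the A and T bases of the centre in the first 3, and the letters TGTGGT read on the opposite strand, a core of the Runx motif, in Mylk.
Acta2, chr19:34255374-34255623, minus strand: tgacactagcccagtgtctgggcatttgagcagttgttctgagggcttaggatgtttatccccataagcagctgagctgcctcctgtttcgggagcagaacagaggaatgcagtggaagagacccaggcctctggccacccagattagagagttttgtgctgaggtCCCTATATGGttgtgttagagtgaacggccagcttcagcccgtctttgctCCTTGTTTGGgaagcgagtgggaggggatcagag
Actc1, chr2:114052876-114053125, minus strand: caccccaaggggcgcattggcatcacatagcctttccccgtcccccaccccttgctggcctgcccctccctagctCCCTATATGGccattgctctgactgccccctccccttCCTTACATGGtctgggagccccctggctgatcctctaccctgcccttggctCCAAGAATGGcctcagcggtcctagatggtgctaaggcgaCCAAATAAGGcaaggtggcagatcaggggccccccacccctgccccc
Myl6, chr10:128493010-128493259, minus strand: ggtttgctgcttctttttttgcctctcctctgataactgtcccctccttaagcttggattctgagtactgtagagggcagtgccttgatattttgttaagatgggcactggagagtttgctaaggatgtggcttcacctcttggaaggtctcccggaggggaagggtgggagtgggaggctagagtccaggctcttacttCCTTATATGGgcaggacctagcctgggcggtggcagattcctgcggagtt
Mylk, chr16:34784700-34784949, plus strand: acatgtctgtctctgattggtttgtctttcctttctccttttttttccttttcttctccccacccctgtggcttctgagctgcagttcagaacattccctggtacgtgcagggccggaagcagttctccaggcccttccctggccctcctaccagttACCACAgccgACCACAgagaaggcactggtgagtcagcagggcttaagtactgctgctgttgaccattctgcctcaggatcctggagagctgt

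The exact CArG box was found on either strand in this stretch of 1.47% of 32851 promoters, and among the members in Actc1 (CCAAATAAGG, 47 to 38 bases before the start) and in 1 of 2 entries of Myl6 (CCTTATATGG, 50 to 41 bases before it). With up to 1 other base allowed in the centre, which takes in the exact boxes, 8.59% of promoters held one, and so did 3 member genes. Actc1 then had 4 matches and Acta2 had 2, CCCTATATGG at 84 to 75 bases and CCTTGTTTGG at 34 to 25 bases before the start. The letters TGTGGT, searched on both strands, occurred in 14% of promoters and among the members only in Mylk, with matches at 93 to 88 and at 83 to 78 bases before the start. The letters TGCGGT occurred in 5.1% of promoters and among the members in Tpm1. These matches are letters in a window and not measured sites.

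Not all member probe sets were bright enough to be tested. A probe set was tested when its log2 value was at least 6 on at least 3 of the 14 arrays, which held for 12190 probe sets and for 9 of the 21 member probe sets, from Acta2, Actc1, Tagln, Mylk, Myl6, Tpm1 and Tpm2. The other 12 member probe sets, all of Actg2, Cnn1 and Myl4 among them, lay mostly below 6, where a value may be background, and are given as values. A gene was called changed in limma, a linear model fitted over all tested probe sets, when its Benjamini-Hochberg adjusted p was under 0.05 and its change at least 1.5-fold. The second probe set of Tpm2 (1425028_a_at) passed the filter on only 3 arrays, so it could pass only where it was high. These were WT arrays 3 and 4 and Cbfb-/- array 1. Tagln passed on 4 arrays, WT arrays 3 and 4 and Cbfb-/- arrays 1 and 2. Lower values against WT arrays 3 and 4 were thus favoured for both, and higher values in Cbfb-/- for Tagln. Mylk (1425506_at) reached 6 on the 4 WT arrays and on no other, so it was tested only because WT was high, and a lower level against WT was then built into its choice.

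Red cell genes were bright: the mean of 11 erythroid genes with a probe set lay between 11.22 and 11.72 on every array. This does not show whether other tissue was present as well, and genes of other tissues were bright on some arrays. Afp, of liver and endoderm, read 11.48 to 11.59 in Cbfb-/- and 5.71 to 8.27 in Cbfb+/MYH11. The collagen gene Col3a1 read 10.78 and 10.63 on WT arrays 3 and 4. The altered gene, Cbfb (1460716_a_at), gave 8.44 and 8.56 on Cbfb+/MYH11 arrays 1 and 2 against 6.91 and 7.06 on arrays 3 and 4, whereas WT arrays 1 and 2 gave 6.62 and 6.57 against 8.31 and 8.14. The second cross had 6.80 to 7.03 for Cbfb-/- and 6.27 to 6.56 for Cbfb+/+. Cbfb was called in neither comparison (limma adjusted p = 0.534 and 0.454), and the direction within the first cross turned between the array pairs. In the second cross its arrays did not overlap, as for 69.9% of all tested probe sets, and Cbfb-/- read higher than Cbfb+/+. The level of Cbfb thus did not show the loss that the titles name. Whether these probes lie within the altered part of the gene was not analysed here, so the labels are unchecked by it and the groups below rest on the labels alone. In the first cross the arrays fell into pairs. The SD, over probe sets, of the difference between arrays of one genotype was 0.115 to 0.278 between arrays 1 and 2 or 3 and 4, and 0.397 to 0.749 between arrays of different pairs, against 0.199 to 0.221 in the second cross. Of the probe sets called in Cbfb+/MYH11 against WT 84.3% were higher, and with quantile normalization 54.9%, since this scaling moved the median of all tested probe sets from 0.27 to -0.03. In Cbfb-/- against Cbfb+/+ the share was 73% and with quantile normalization 51.4%, and for the difference between the genotype effects 71.4% and 59.2%.

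The contractile genes differed most between single arrays of the WT group. On WT arrays 3 and 4, 10 of the 21 member probe sets lay above all other 12 arrays of the series, and these came from 8 genes, all members but Myl6 and Tpm1. The same held for 3.84% of all tested probe sets and for 6 of the 9 tested member probe sets, a count that the choice of the set can carry and from which nothing is read. Acta2 (1416454_s_at), the actin of vascular smooth muscle, measured 7.52 and 6.98 on WT arrays 1 and 2 and 10.27 and 10.21 on WT arrays 3 and 4, 7.97-fold higher in the means. In Cbfb+/MYH11 blood Acta2 read 7.45, 7.57, 8.22 and 8.24, the Cbfb-/- arrays 7.75, 7.34 and 7.80, and the Cbfb+/+ arrays 6.74, 7.19 and 7.01. WT arrays 3 and 4 thus stood 2 log2 units in their mean above the highest other array, while WT arrays 1 and 2 lay within the range of the other groups. In bulk blood, a change in the number of cells of one type and a change in RNA per cell cannot be told apart.

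**Figure D1:**
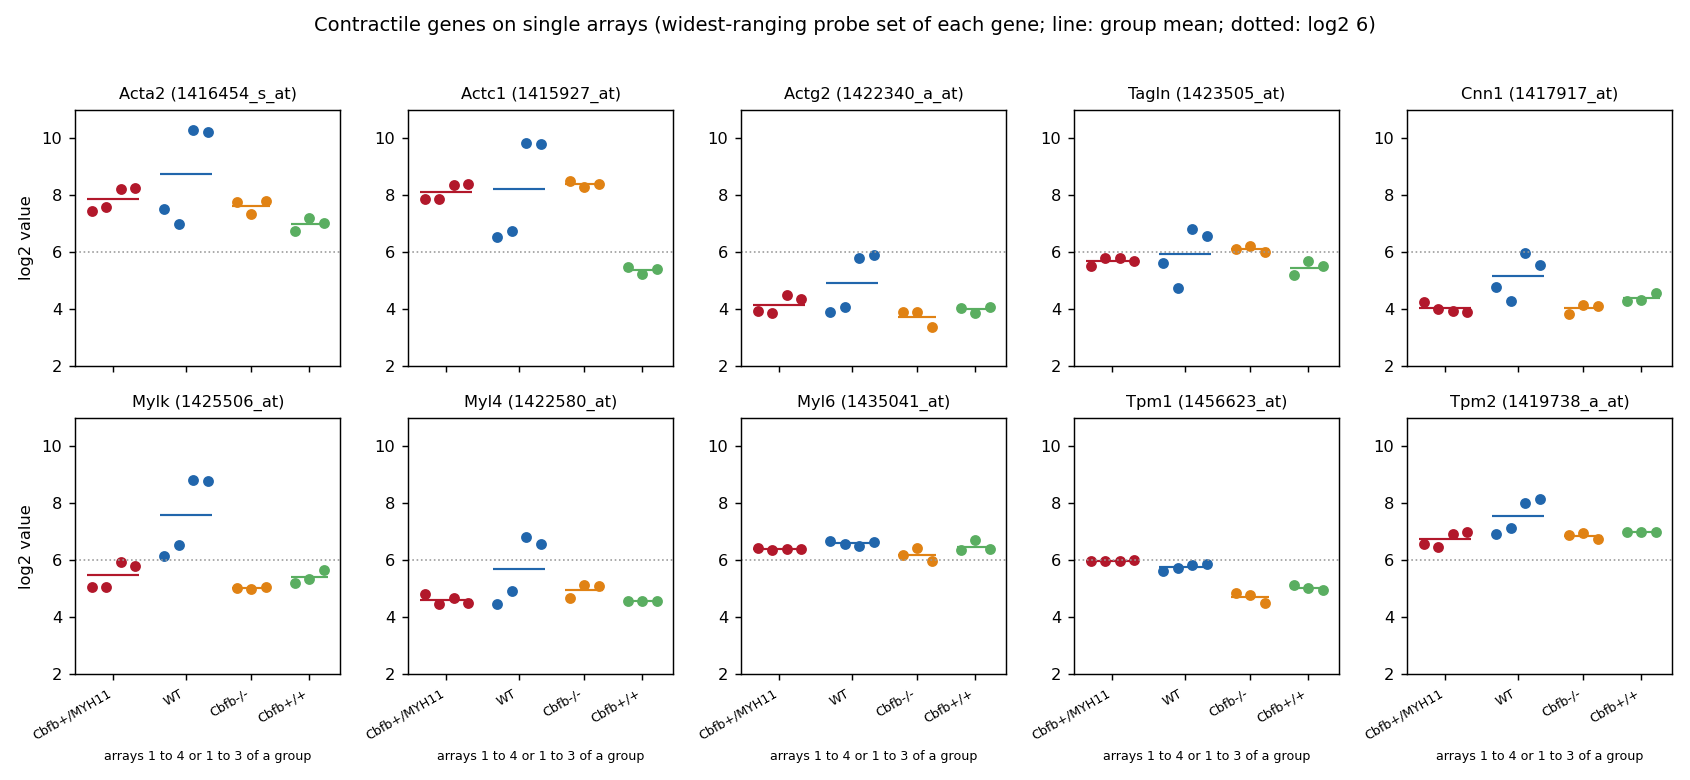
Log2 value (vertical axis) of each contractile gene on each of the 14 arrays, by group on the horizontal axis, for the probe set with the widest range; points are arrays in the order of their numbers, lines are group means and the dotted line is the filter level of 6. WT arrays 3 and 4 are the 2 highest points for 8 genes, and Actc1 is lowest on the Cbfb+/+ arrays (5.23 to 5.49).

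Actc1 (1415927_at), the actin of the heart, gave 6.54 and 6.75 on WT arrays 1 and 2, and 9.83 and 9.79 on the other WT arrays. In Cbfb+/MYH11 blood Actc1 read 7.87, 7.85, 8.37 and 8.39, on the Cbfb-/- arrays 8.49, 8.29 and 8.38, and on the Cbfb+/+ arrays 5.49, 5.23 and 5.41. Of these groups the Cbfb+/+ arrays were the lowest, and no other array came near them. The highest mean was that of Cbfb-/- (8.39 ± 0.10, SD, n = 3), followed by WT (8.23 ± 1.83, n = 4) and Cbfb+/MYH11 (8.12 ± 0.30, n = 4), which did not differ beyond the spread of the WT arrays, and last by Cbfb+/+ (5.38 ± 0.14, n = 3).

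Mylk had 2 probe sets with one pattern and another without it. On 1425506_at the WT arrays read 6.16, 6.53, 8.83 and 8.78, the Cbfb+/MYH11 arrays 5.05, 5.05, 5.96 and 5.82, the Cbfb-/- arrays 5.02, 4.98 and 5.06, and the Cbfb+/+ arrays 5.22, 5.34 and 5.66. All 4 WT arrays were above every other array, and the other groups lay under 6, where a value may be background. The dimmer 1425505_at read 5.18, 5.48, 7.45 and 7.51 on the WT arrays and 3.72 to 5.19 on the other arrays. The flat one, 1425504_at, kept between 4.51 and 5.41 on all 14 arrays.

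The calponin and transgelin genes were dim. Tagln (1423505_at) measured 5.62, 4.75, 6.81 and 6.58 on the WT arrays. Cbfb+/MYH11 blood gave 5.53, 5.79, 5.79 and 5.69, with 6.11, 6.20 and 5.99 on the Cbfb-/- arrays and 5.19, 5.68 and 5.50 on the Cbfb+/+ arrays. WT arrays 3 and 4 were highest and WT array 2 lowest of all 14, so that the WT group spanned the whole range. Cnn1 (1417917_at) was 4.79, 4.28, 5.98 and 5.55 on the WT arrays and 3.83 to 4.55 on all others, below the filter level throughout. Actg2 (1422340_a_at), the enteric actin, read 3.89, 4.08, 5.80 and 5.91 on the WT arrays and 3.37 to 4.48 elsewhere. Myl4 (1422580_at), the light chain of the atria and of embryonic muscle, read 4.48, 4.92, 6.82 and 6.57 on the WT arrays and 4.47 to 5.12 elsewhere, and its other probe set (1457126_at) 5.06 to 5.82 on all arrays.

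Myl6 and Tpm1, which are also used outside muscle, did not share this pattern, apart from a weaker rise on 1 Tpm1 probe set. Myl6 (1435041_at), the light chain of smooth and non-muscle myosin, lay between 5.98 and 6.70 on all 14 arrays. Tpm1 lay between 7.51 and 8.04 on 1423049_a_at and between 7.40 and 8.18 on 1423721_at, and neither probe set had both WT arrays 3 and 4 above all others. On 1423721_at the WT arrays read 7.44, 7.40, 8.18 and 8.01, 1.60-fold higher in the mean of arrays 3 and 4. Cbfb+/MYH11 array 4 also read 8.01 there. Tpm2 (1419738_a_at) did share the pattern of WT arrays 3 and 4, with 6.94, 7.12, 8.03 and 8.15 on the WT arrays. Cbfb+/MYH11 blood gave 6.57, 6.48, 6.93 and 7.01, with 6.88, 6.96 and 6.76 on the Cbfb-/- arrays and 6.99, 7.0 and 6.98 on the Cbfb+/+ arrays. Its other tested probe set, 1425028_a_at, was 5.50, 5.70, 6.87 and 6.86 on the WT arrays and 5.33 to 6.04 on all others. Different probe sets of a gene did not always go together: 2 further Acta2 probe sets (1456658_at, 4.46 to 5.48, and 1444105_at, 2.35 to 2.88) were dim and were not highest on WT arrays 3 and 4. The suffix of 1416454_s_at marks probes that can match more than 1 transcript, and which actin transcripts they detect was not analysed here.

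The wild types of the crosses were compared as a description, since they differ in the cross and in its handling, which cannot be told apart. Of the 9 tested member probe sets 2 stood apart, with no overlap between the arrays and means at least 1.5-fold different, and both were lower in Cbfb+/+ than in WT. Among all tested probe sets 6.52% stood apart with Cbfb+/+ lower, and since the set was chosen on this difference nothing is read from the member count. For Actc1 the Cbfb+/+ mean was 2.85 log2 units below the WT mean, and for Mylk (1425506_at) it was 2.17 below. All Cbfb+/+ arrays were under 6 for both, where a value may be background, so no fold is given. The level of Acta2 was 1.76 lower in the mean, but its arrays overlapped. The median difference over the tested members was -0.57 and over all tested probe sets -0.01.

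Most of this difference came with WT arrays 3 and 4. Against WT arrays 1 and 2 alone, the Cbfb+/+ mean differed by -0.27 for Acta2, 0.27 for Tagln, 0.02 for Actg2, -0.15 for Cnn1, -0.12 for Myl4 (1422580_at), -0.04 for Tpm2 (1419738_a_at) and -0.94 for Mylk (1425506_at). Against WT arrays 3 and 4 the differences were -3.26, -1.24, -1.86, -1.38, -2.12, -1.10 and -3.40 in the same order. Actc1 was lower in Cbfb+/+ than in either pair, by 1.27 and 4.43 log2 units. Without WT arrays 3 and 4, a setting chosen after seeing the data, 1 member probe set stood apart. Just inside and just outside the 1.5-fold limit were Tpm1 (1456623_at), which was below the filter and stood apart at -0.72, and the 2 tested Tpm2 probe sets, which differed by 1.48-fold and 1.49-fold and overlapped.

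**Figure D2:**
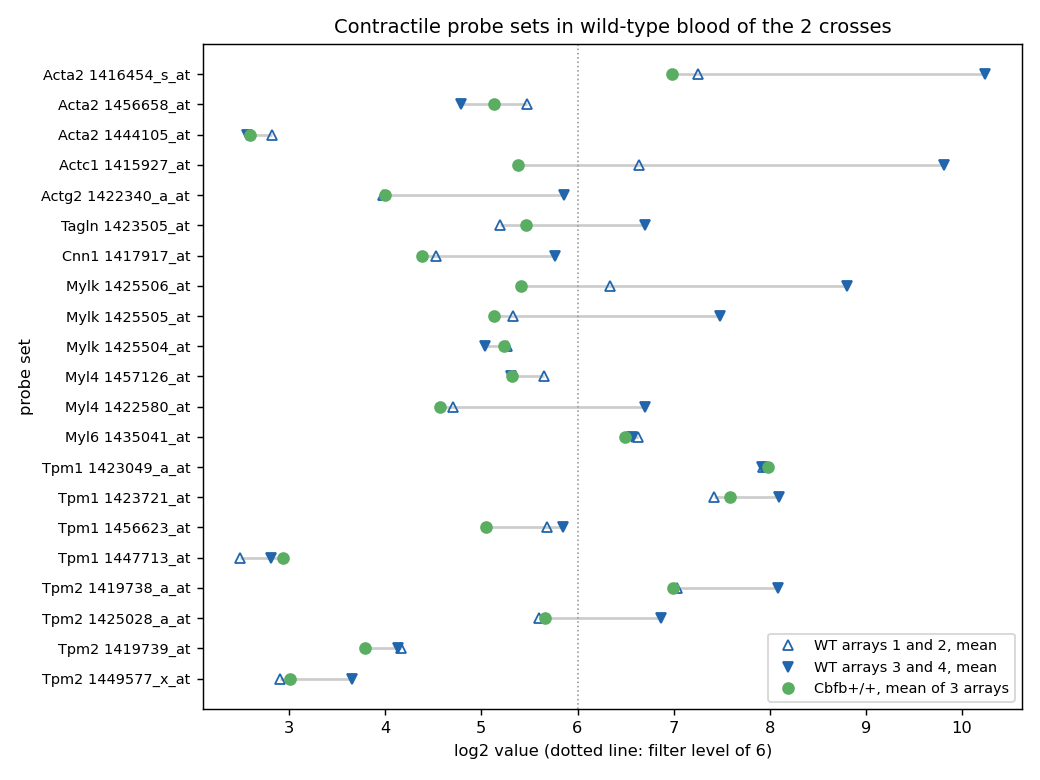
Log2 level (horizontal axis) of the 21 contractile probe sets (vertical axis) in the wild types: open triangles are means of WT arrays 1 and 2, filled triangles means of WT arrays 3 and 4, circles means of the 3 Cbfb+/+ arrays and the dotted line the filter level of 6. The filled triangle lies far to the right for Acta2 (1416454_s_at), Actc1 and 2 Mylk probe sets, and the circle of Actc1 (5.38) lies left of both triangles.

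In Cbfb+/MYH11 blood against WT littermates, Tpm2 and Mylk were called lower and no other member was called. The Mylk probe set entered the test through the WT arrays alone. The WT arrays of this comparison are the ones on which the set was chosen, so the 2 comparisons share them. The p-values of all members in this comparison are therefore a description. Of the 9 tested member probe sets 2 were called lower and 0 higher, against 5.64% lower and 30.4% higher (36.0% in either direction) among all tested probe sets. Nothing is read from the member count. The median over the tested members was -0.33, and over all tested probe sets 0.27. The arrays of the 2 genotypes did not overlap for 3 of the 9 member probe sets, against 51.6% of all.

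Mylk (1425506_at), the kinase that starts smooth muscle contraction, had a mean of 7.57 ± 1.43 in WT and 5.47 ± 0.49 in Cbfb+/MYH11 (SD, n = 4 each), a difference of -2.11 log2 units (SE 0.53, 95% interval -3.25 to -0.96, limma adjusted p = 0.00427). Because of the way it passed the filter, and because all Cbfb+/MYH11 arrays lie under 6, the p is given as a description and no fold is given. It was called within arrays 1 and 2 (-1.30) and within arrays 3 and 4 (-2.92), where 7.83% and 6.30% of all tested probe sets were called lower, and with each array left out in turn (-2.58 to -1.69). Without WT arrays 3 and 4 the probe set no longer passed the filter. With arrays averaged to 6 putative pools the limma adjusted p was 0.214. In a fit with no filter the dimmer Mylk probe set 1425505_at was also called lower (-2.08, adjusted p = 0.00347). It reached 6 only on WT arrays 3 and 4. All these further calls of Mylk reuse the same WT arrays, so they too are a description.

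Tpm2 (1419738_a_at), the beta tropomyosin, was lower by 0.81 (SE 0.24, 95% interval -1.33 to -0.29, 1.75-fold, limma adjusted p = 0.0111), although its arrays overlapped. Its p-values too are a description, since the set was chosen on these WT arrays. The difference was -0.51 within arrays 1 and 2, where it was under the fold limit in log2 terms and not called, and -1.11 within arrays 3 and 4, where it was called. Without WT arrays 3 and 4 it was -0.28 (adjusted p = 0.0925), and with 6 putative pools the adjusted p was 0.276. The second Tpm2 probe set, 1425028_a_at, differed by -0.60 (adjusted p = 0.0876). It was called in the fit blocked by replicate number (adjusted p = 0.00629). It was also called without WT array 1 (-0.84, adjusted p = 0.0173) and without WT array 2 (-0.78, adjusted p = 0.0411). On this probe set no Cbfb+/MYH11 array reached the filter level and WT arrays 3 and 4 did, so these calls are a description.

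For Actc1 the direction depended on the array pair. It differed by -0.11 (95% interval -1.50 to 1.28, limma adjusted p = 0.893) over all arrays, by 1.22 within arrays 1 and 2 and by -1.43 within arrays 3 and 4, and both within-pair differences were called. Without WT arrays 3 and 4 it was 1.48 higher in Cbfb+/MYH11 (adjusted p = 5.88e-06). Acta2 differed by -0.88 (95% interval -2.23 to 0.48, adjusted p = 0.239), by 0.26 within arrays 1 and 2 (not called) and by -2.01 within arrays 3 and 4 (called), and without WT arrays 3 and 4 it was 0.62 higher (adjusted p = 0.0381). Without WT array 2 Acta2 was called lower (-1.46, adjusted p = 0.0367). Actg2, below the filter, differed by -0.09 within arrays 1 and 2 and by -1.44 within arrays 3 and 4.

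The remaining tested members were not called. Tagln differed by -0.24 (95% interval -0.98 to 0.50, limma adjusted p = 0.548). It differed by 0.47 within arrays 1 and 2 and by -0.96 within arrays 3 and 4, and only the latter was called. Without WT array 2 it was called lower (-0.64, adjusted p = 0.0338). No Cbfb+/MYH11 array of Tagln reached the filter level and WT arrays 3 and 4 did, so these calls are a description. Tpm1 (1423049_a_at) differed by -0.33 (95% interval -0.49 to -0.16, adjusted p = 0.00257), under the fold limit, and with quantile normalization by -0.73 (adjusted p = 5.8e-05), which was called. Its other tested probe set, 1423721_at, differed by 0.12 (95% interval -0.22 to 0.46) and by -0.30 with quantile normalization. Myl6 differed by -0.21 (95% interval -0.43 to 0.02, adjusted p = 0.101). Among the members below the filter, a fit with no filter called Cnn1 lower (-1.12, adjusted p = 0.00645), and Actg2 (-0.77) and Myl4 1422580_at (-1.08, adjusted p = 0.0558) were not called.

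**Figure D3:**
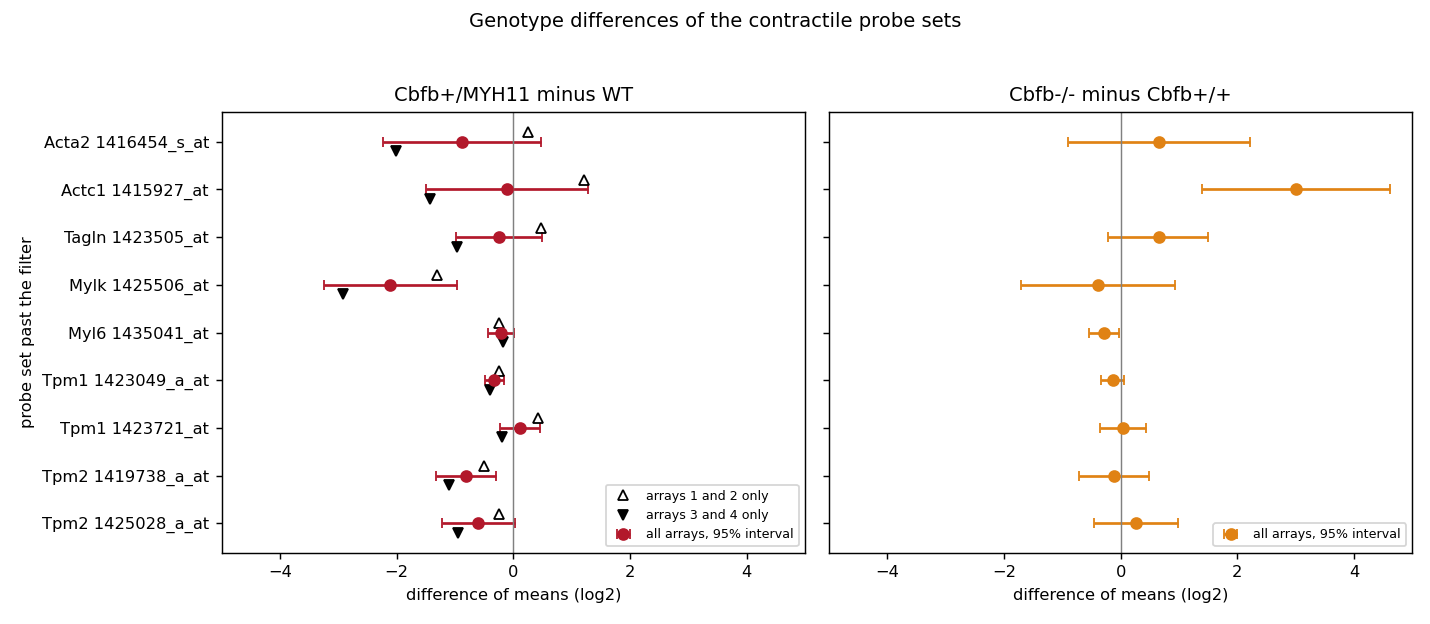
Difference of means in log2 units (horizontal axis) with 95% intervals for the 9 tested contractile probe sets (vertical axis), Cbfb+/MYH11 minus WT on the left and Cbfb-/- minus Cbfb+/+ on the right; triangles give the difference within arrays 1 and 2 (open) and within arrays 3 and 4 (filled). For Acta2, Actc1 and Tagln the triangles lie on opposite sides of 0, and for Mylk (-1.30 and -2.92) on one side; on the right the interval of Actc1 (1.40 to 4.61) lies far from 0.

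In Cbfb-/- blood against Cbfb+/+ littermates, Actc1 was called higher, from Cbfb+/+ arrays on which the set was chosen, and no other member was called. It was 3.01 log2 units higher (SE 0.74, 95% interval 1.40 to 4.61, limma adjusted p = 0.00763), with all 3 Cbfb-/- arrays (8.29 to 8.49) above all 3 Cbfb+/+ arrays (5.23 to 5.49). Of the 9 tested member probe sets 1 was called higher and 0 lower, against 19.8% higher and 7.31% lower (27.1% in either direction) of all tested probe sets, with a median of 0.04 over the tested members and 0.13 over all. The call of Actc1 held with each array left out in turn (2.93 to 3.06) and not with putative pools (adjusted p = 0.674), where each genotype of this cross has 1 pool that is assumed to vary like those of the other cross. The Cbfb+/+ arrays all lie under 6, where a value may be background, so no fold is given. They are also those of the wild-type comparison above, whose low Actc1 level entered the choice of the set. The p and the fits that left out 1 array reuse these arrays, so they are given as a description. The Cbfb-/- mean (8.39) lay between the means of WT arrays 1 and 2 (6.64) and of WT arrays 3 and 4 (9.81).

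Acta2 and Tagln also did not overlap between the genotypes of this cross, as did 6 of the 9 tested member probe sets and 69.9% of all tested probe sets. Acta2 differed by 0.65 (95% interval -0.91 to 2.22, limma adjusted p = 0.47) and Tagln by 0.65 (95% interval -0.21 to 1.5, adjusted p = 0.192), with a spread estimated over all 4 groups. In a fit of the arrays of this cross alone both were called higher, Acta2 with an adjusted p of 0.0082 and Tagln with 0.00342. Tagln reached the filter level in this cross only on Cbfb-/- arrays 1 and 2, so its p-values are a description. Acta2 was also called without WT arrays 3 and 4 (adjusted p = 0.0314), and Tagln without WT array 2 (adjusted p = 0.0493). All these fits use the Cbfb+/+ arrays on which the set was chosen, so the p-values of Acta2 are a description as well. The SD of the WT arrays, 1.74 for Acta2 against 0.23 to 0.42 in the other groups, enters the pooled estimate.

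The other members were close in Cbfb-/- and Cbfb+/+ blood. Mylk (1425506_at) differed by -0.39 (95% interval -1.70 to 0.93), the Tpm2 probe sets by -0.12 and 0.27, the Tpm1 probe sets by -0.14 and 0.04 and Myl6 by -0.29 (95% interval -0.55 to -0.03, limma adjusted p = 0.0666), and none was called. The intervals of Mylk and of Tpm2 1425028_a_at (-0.45 to 0.99) still hold changes past the fold limit. With no filter a dim Tpm2 probe set, 1449577_x_at, was called higher (1.12, adjusted p = 0.00806); the Cbfb-/- arrays read 4.44, 3.89 and 4.08 and the Cbfb+/+ arrays 2.80, 3.05 and 3.18, where all may be background.

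The effect of the fusion less the effect of the Cbfb loss contains the difference between the wild types on which the set was chosen, so for the members it is a description with no test. For Actc1 it was -3.11 log2 units (95% interval -5.24 to -0.99). The means of the mutants were 8.12 in Cbfb+/MYH11 and 8.39 in Cbfb-/-, and those of their wild types were 8.23 and 5.38, so most of this value was the difference of -2.85 between Cbfb+/+ and WT. Within arrays 1 and 2 of the first cross it was -1.79, within arrays 3 and 4 it was -4.44, and without WT arrays 3 and 4 it was -1.53. In limma over all probe sets 1 of the 9 tested member probe sets, Actc1, was past the limits and lower, against 5.89% lower (20.6% in either direction) of all tested probe sets, from which nothing is read. For Mylk the difference was -1.72, and for the Tpm2 probe sets -0.69 and -0.87.

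The members varied together over the arrays to different degrees, which is given as a description over 14 arrays that share pools and wild types. Mylk and Tpm2 (1419738_a_at) had a Pearson correlation of 0.942, Acta2 and Mylk 0.855 and Acta2 and Actc1 0.809. With WT arrays 3 and 4 left out these were 0.592, 0.018 and 0.783, so that Acta2 kept to Actc1 and not to Mylk. Of 7385 other genes the most like Actc1 were Rhoq (0.985), Fndc3c1 (0.970) and Prkd3 (0.969), and these values stayed at 0.979, 0.956 and 0.957 without WT arrays 3 and 4. For Mylk they were Tgfbr3 (0.963), Shh (0.946) and Col6a3 (0.935), which went down to 0.786, 0.556 and 0.762.

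Genes most like Acta2 were Rbms3 (0.951), Zfp503 (0.950) and Rdh10 (0.941), with 0.735, 0.837 and 0.808 when WT arrays 3 and 4 were left out. Tagln came with Mmp14 (0.928), Tenm3 (0.915) and Pdgfra (0.914), a receptor of mesenchymal cells. Tpm2 came with Tgfbi (0.954), Tgfbr3 (0.892) and Rab15 (0.880), of which Rab15 had a correlation of -0.084 without WT arrays 3 and 4. The members without the WT pattern had other neighbours, Myl6 with Ap5z1 (0.879), Slc31a2 (0.859) and Tcn2 (0.841) and Tpm1 (1423049_a_at) with Cldn13 (0.946), Cmpk2 (0.945) and Fads2 (0.935).

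Among other genes of smooth muscle contraction, 5 of 22 with a probe set had WT arrays 3 and 4 above all other arrays. They were Cald1, which binds actin and tropomyosin and read 5.83, 6.61, 8.65 and 8.75 on the WT arrays, and Myl9, Itga8, Pdlim3 and Nexn. Only 2 of these 5 were tested, and among all tested probe sets 3.84% had this pattern. The lists were chosen with earlier results of these data known, so nothing is read from such counts here or below. Of the 22 genes 9 were tested, and in Cbfb+/MYH11 against WT 2 rose and 1 fell, while in Cbfb-/- against Cbfb+/+ 0 rose and 1 fell. Of all tested probe sets 30.4% rose and 5.64% fell in the former, and 19.8% rose and 7.31% fell in the latter. Nothing is read from a count of this or a later list that is near these shares. The gene called lower in both was Myl9, the regulatory light chain that the Mylk kinase phosphorylates, at -2.10 (limma adjusted p = 3.9e-06) and -1.12 (adjusted p = 0.00295). Its WT arrays read 7.52, 7.54, 8.00 and 8.12 against 5.25 to 6.09 in Cbfb+/MYH11, and the difference was -2.23 and -1.97 within the array pairs. Vcl, which anchors actin at adhesions, rose in Cbfb+/MYH11 by 1.77 (adjusted p = 1.61e-05), and Ppp1r12a, the targeting subunit of the phosphatase that opposes the kinase, by 0.81 (adjusted p = 0.00322); with quantile normalization Vcl was still called (1.41) and Ppp1r12a was not (0.44). With WT arrays 3 and 4 left out, 4 genes of this list rose in Cbfb+/MYH11 and 1 fell, and with quantile normalization 1 rose and 2 fell. Over all probe sets these settings gave 4972 higher and 1149 lower, and 2122 higher and 1742 lower. Myh11, the mouse gene whose human counterpart is in the fusion, differed by -0.05 and -0.17 and was not called, at levels of 5.87 to 6.76.

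Genes of the heart were mostly dim, and 9 of 26 had WT arrays 3 and 4 above all other arrays. These 9 were singled out after their values were seen. Only 1 of them was tested, so the 3.84% of all tested probe sets with this pattern is no matching share, and nothing is read from the count. Myl7, the regulatory light chain of the atria, read 5.01, 4.95, 8.14 and 7.94 on the WT arrays and 4.30 to 4.97 on the others. Myh6, the alpha heavy chain, read 3.54, 3.65, 6.37 and 6.28, and Tnnc1, the cardiac troponin C, 4.77, 4.65, 6.85 and 6.77. Tnnc1 was also higher on the Cbfb-/- arrays (5.79, 5.43 and 5.50) than on the Cbfb+/+ arrays (4.65, 4.93 and 4.55), all below the filter level. For Nppa, an atrial hormone, they were 3.66, 3.41, 5.81 and 5.88. Of the 26 genes 16 were below 6 on every array, among them Myl2 and Myh7 of the ventricle and the cardiac factor Nkx2-5. Only 5 were tested, of which 1 rose in each genotype comparison, against 30.4% and 19.8% of all tested probe sets. In both cases it was Atp2a2, the calcium pump of the reticulum (0.67, limma adjusted p = 0.018, and 1.00, adjusted p = 0.00831). In the fusion comparison Atp2a2 was not called with quantile normalization (0.29). With that scaling 0 heart genes rose and 2 fell in Cbfb+/MYH11, and 1 rose and 1 fell in Cbfb-/-.

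The non-muscle actomyosin genes, which blood cells use, were bright, and 21 of 23 were tested. In Cbfb+/MYH11 against WT 6 rose and 2 fell, where 30.4% of all tested probe sets rose and 5.64% fell. In Cbfb-/- against Cbfb+/+ 4 rose and 0 fell, where 19.8% rose and 7.31% fell. The counts of higher genes were near these shares. Quantile normalization gave 1 higher and 3 lower in the former comparison and 2 higher and 1 lower in the latter. Without WT arrays 3 and 4, 10 rose and 2 fell in Cbfb+/MYH11. Vasp, which elongates actin filaments, rose in Cbfb+/MYH11 by 1.13 (limma adjusted p = 2.89e-07) and by 0.73 with quantile normalization. Actg1, the non-muscle gamma actin, rose by 0.67 (adjusted p = 0.015) and in Cbfb-/- by 1.05 (adjusted p = 0.00559), the former not called with quantile normalization (0.43). Cnn3 and Myh10, the non-muscle relatives of Cnn1 and Myh11, were low on WT arrays 1 and 2 and on the Cbfb+/+ arrays and higher on the other arrays, but lowest on WT arrays 1 and 2, unlike Actc1. Cnn3 read 6.54, 6.80, 9.73 and 9.70 on the WT arrays, 8.43 to 9.47 in Cbfb+/MYH11, 9.65 to 9.84 in Cbfb-/- and 7.42 to 7.58 in Cbfb+/+. In Cbfb-/- Cnn3 rose by 2.24 (adjusted p = 0.0281) and Myh10 by 2.02 (adjusted p = 0.0464, not called with quantile normalization).

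**Figure D4:**
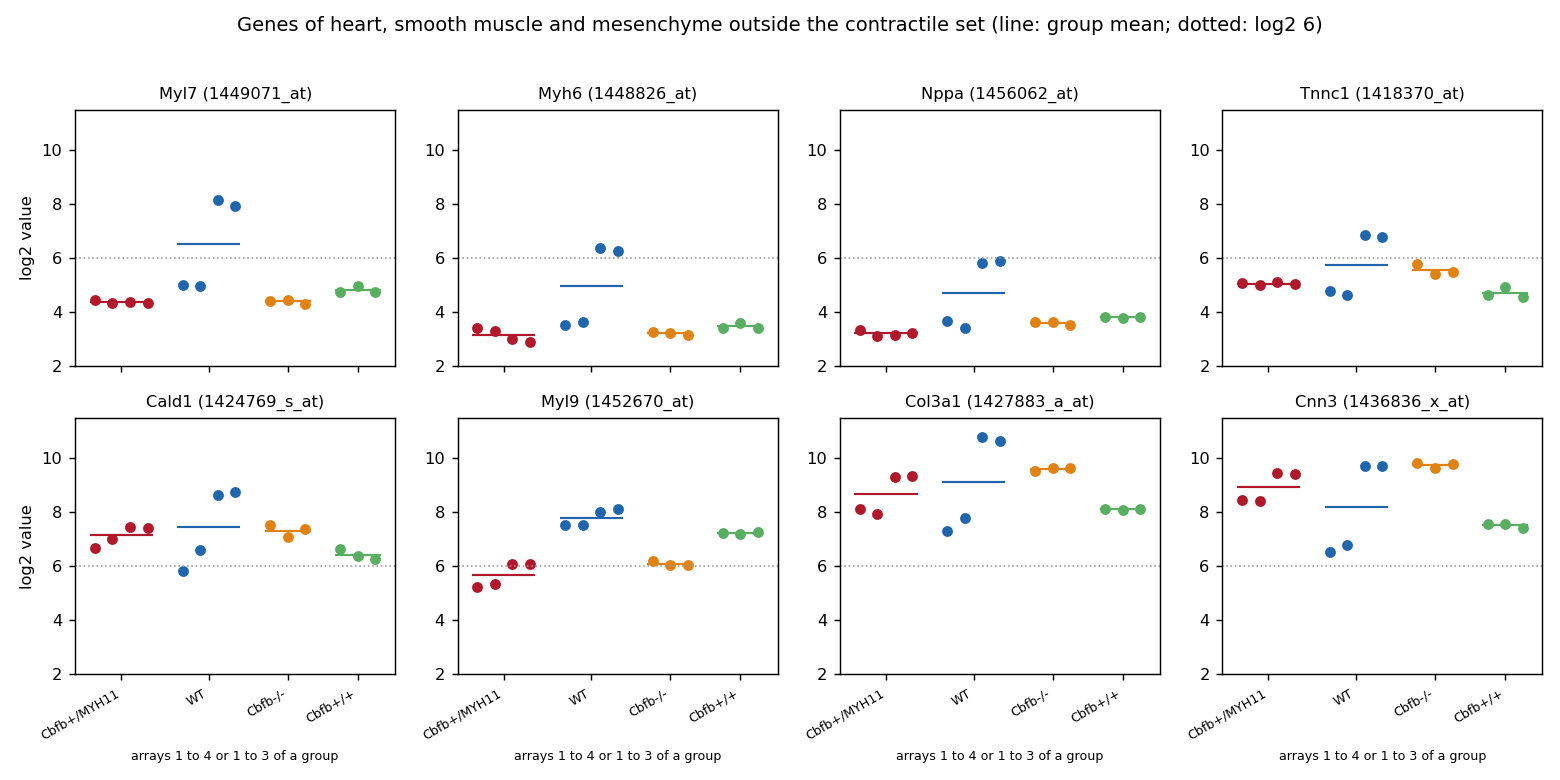
Log2 value (vertical axis) on each array, by group on the horizontal axis, of 4 heart genes (upper row), the smooth muscle genes Cald1 and Myl9, the collagen gene Col3a1 and Cnn3 (lower row); points are arrays, lines group means and the dotted line the filter level of 6. Myl7, Myh6, Nppa and Tnnc1 are highest on WT arrays 3 and 4, with Tnnc1 next highest on the Cbfb-/- arrays, whereas Myl9 is high on all 4 WT arrays and Cnn3 is high on the Cbfb-/- arrays (9.65 to 9.84) as well.

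SRF and the TGF-beta pathway, which control many of these genes, were represented by 21 genes with a probe set, of which 15 were tested. In Cbfb+/MYH11 1 rose and 2 fell, where 30.4% of all tested probe sets rose and 5.64% fell. In Cbfb-/- 4 rose and 1 fell, where 19.8% rose and 7.31% fell. Leaving out WT arrays 3 and 4 gave 5 higher and 2 lower in the former comparison and 6 higher and 1 lower in the latter. Srf itself differed by -0.15 (limma adjusted p = 0.141) and -0.39 (adjusted p = 0.00781, under the fold limit), and its partner Myocd was below 6 on every array. Fos, an early target of SRF, fell in Cbfb+/MYH11 by 1.47. Smad3, which carries TGF-beta signals, rose in Cbfb-/- by 1.15 (adjusted p = 0.00237). Tgfb1, the ligand, rose by 0.76 in Cbfb+/MYH11 (0.44 and not called with quantile normalization) and fell by 0.69 in Cbfb-/-. Of the skeletal muscle genes 2 of 17 were tested, and Acta1, the skeletal actin, fell in Cbfb+/MYH11 by 0.78 (adjusted p = 5.24e-04).

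Some lists of markers of other cell types moved with the members across the WT arrays and some went the other way. The erythroid mean stayed at 11.22 to 11.30 on these arrays. The mean of 16 mesenchyme genes was 6.21, 6.25, 7.38 and 7.34 on WT arrays 1 to 4, 6.25 to 6.99 in Cbfb+/MYH11, 7.14 to 7.29 in Cbfb-/- and 6.71 to 6.74 in Cbfb+/+, and 8 of the 16 had WT arrays 3 and 4 highest. Of the 13 tested mesenchyme genes 7 had them highest, against 3.84% of all tested probe sets, and nothing is read from this count. Col3a1, a collagen of connective tissue, read 7.31, 7.79, 10.78 and 10.63 on the WT arrays. The mean of the 26 heart genes was 4.99, 4.94, 5.52 and 5.48 on WT arrays 1 to 4 and 4.70 to 4.96 elsewhere. Macrophage markers went the other way, with means over 14 genes of 6.93, 7.12, 5.45 and 5.45 on WT arrays 1 to 4, 4.90 to 4.98 in Cbfb+/MYH11, 4.90 to 5.03 in Cbfb-/- and 6.69 to 6.75 in Cbfb+/+. So did those of 13 megakaryocyte genes, 7.95, 8.09, 6.64 and 6.63, and those of 10 liver and endoderm genes, 7.16, 7.28, 5.21 and 5.30.

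These lists also held genes called between the genotypes. Some of them were tested only because the group with the higher level reached the filter level of 6. Lhx2 reached it only on the Cbfb-/- arrays, Fabp7 only on arrays of the mutants, and C1qc and Gp1bb only on wild-type arrays. The direction of such calls was favoured by the filter, so the counts here are a description. In Cbfb-/- 3 of 13 tested mesenchyme genes, 5 of 6 tested neural genes and 5 of 8 tested liver and endoderm genes rose beside Actc1, whereas all 10 tested macrophage and all 11 tested megakaryocyte genes fell. Of all tested probe sets 19.8% rose and 7.31% fell, so the mesenchyme count was near the share of all. In Cbfb+/MYH11 5 of the 8 liver and endoderm genes, 7 of 10 macrophage and 7 of 11 megakaryocyte genes were called lower, as was Tpm2. Called higher were 2 neural genes and Plek, a gene of the megakaryocyte list. For liver and endoderm genes the median difference was -2.33 within arrays 1 and 2 and 0.02 within arrays 3 and 4, so their fall was not seen in both pairs. In the same order the medians were -2.73 and -1.23 for macrophage, -2.08 and -0.80 for megakaryocyte and 0.50 and 1.85 for neural genes. Among all tested probe sets 30.4% rose and 5.64% fell in this comparison. Of the mesenchyme genes 1 rose and 1 fell in Cbfb+/MYH11, but with quantile normalization 1 rose and 5 fell, and without WT arrays 3 and 4 it was 4 and 1. Without these arrays 5 mesenchyme genes rose in Cbfb-/-. Of 14 endothelial genes 8 were below 6 on every array, with means of 4.93 to 5.38 on all arrays. Their part in the results for the contractile genes was not tested.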

How the data were processed

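Pooled embryonic blood gave total RNA, which was biotin-labelled for Affymetrix arrays, per the labels' protocols. The authors deposited log2 values made with RMA in Affymetrix Expression Console, per the submitters' processing notes, with versions and genome build not given in the sources used here. The deposited values of 45101 probe sets were used as they came, without 64 array controls, and 0 columns belonged to other series. Symbols came from the platform table: 34945 probe sets had 1 symbol, 932 several and 9160 none. Array medians were 4.27 to 4.46, no arrays were identical, and the number of arrays limits precision.

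Groups came from the titles. Group means were fitted with limma 3.58.1 (R 4.3.3) on all 14 arrays, in 4 groups with no covariate (10 residual and 2.70 prior degrees of freedom), and adjusted over all 12190 tested probe sets of a contrast. The fit was tested on simulated data. Members and gene lists were chosen with earlier results of these data known. From each other list up to 3 genes with the smallest adjusted p per genotype comparison could be named, besides Myh11, Srf and Myocd. Others (Cald1, Myl7, Myh6, Nppa, Tnnc1, Myl2, Myh7, Nkx2-5, Cnn3, Myh10, Col3a1, Itga8, Pdlim3, Nexn, Plek, Afp) were chosen after their values were seen. A gene of a list was read from its probe set with the highest mean.

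Pairing of same-numbered arrays rests on the titles' numbers and was checked by correlating deviations from group means over probe sets. In the first cross the correlations were 0.522, 0.410, 0.496 and 0.500. Arrays of one pair with different numbers gave 0.445, 0.424, 0.481 and 0.512 there. The match was thus between array pairs and not between single numbers. In the second cross same-numbered arrays gave 0.0186, 0.00939 and 0.0344. A block on the number and other settings were tried.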

Additional observations from a re-analysis of the deposited data

Results flagged for a closer look

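For Actc1 the effect of the fusion less that of the Cbfb loss was -3.11 log2 units. It passed a test of the difference between the crosses over all probe sets, but most of it was the difference of -2.85 between Cbfb+/+ and WT on which the set was chosen, so it is no independent result, and the call was lost in 8 of 14 fits that each left out 1 array. On a dim Tpm1 probe set (1456623_at) Cbfb+/MYH11 array 4, at 6.02, stood off from the other 3, of which the nearest was 5.98. That was 1 of 42 groups of 4 examined, and chance sets off about 1 in 20.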

How the results depend on the processing

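All values are counts of called probe sets from limma, and those for the difference of the effects contain the wild-type difference on which the members were chosen. For the members, arrays centred on their medians gave 2 calls in the difference of the effects. No filter gave 4 calls for the fusion, 2 for the Cbfb loss and 0 for the difference (8 member probe sets at an unadjusted p under 0.05), and a filter at 7 gave 1 for the fusion, 1 wild-type member apart and 1585 probe sets for the difference. With 1 probe set per gene 2671, 1935 and 1548 were called for fusion, loss and difference, over 7392 genes, and without the fold limit 7485 and 5252 for fusion and loss. The arrays of the second cross alone gave 3 member calls. With the replicate number as a block 4 members were called in the difference; the only other member call it changed was that of Tpm2 1425028_a_at for the fusion. The 6 putative pools left 7, 0 and 0 calls over all probe sets, with 3307, 603 and 849 at an unadjusted p under 0.05, and 0, 0 and 0 among members, with 0 at an unadjusted p under 0.05 in each. Within arrays 1 and 2 there were 4032 calls in the difference, 2 of them members, and Actc1 turned to 1.22 for the fusion. Within arrays 3 and 4 there were 6 members for the fusion, 3990 probe sets and 6 members for the difference, and 6 wild-type members apart. Without WT arrays 3 and 4, added after seeing the data, the loss had 2 members, the difference 3959 probe sets and the wild types 1 member apart, and for the fusion Acta2 turned to 0.62 and Actc1 to 1.48. Leaving out each array gave 3695 to 5000 calls and 2 to 5 members for the fusion, 2420 to 3565 and 1 to 2 for the loss, 2007 to 2721 and 0 to 3 for the difference, and 2 to 3 wild-type members apart; WT array 2 gave the highest member count for the fusion and WT array 1 for the difference. Quantile normalization changed 1 member call, Tpm1 1423049_a_at for the fusion. Where fewer probe sets or arrays entered, that alone can move a count; otherwise the cause was not tested.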
